A study of Mus musculus with 6 samples.

Results

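The small proline-rich 2 (Sprr2) genes were followed in tumours grown from KLN205, a lung squamous carcinoma line of the mouse, after antibody blockade of PD-1, a receptor that restrains T cells. Clusters of the array table were chosen by gene symbol: every transcript cluster that names Sprr2a1, Sprr2a2, Sprr2b, Sprr2d, Sprr2e, Sprr2f, Sprr2g, Sprr2h, Sprr2i or Sprr2k was taken. This gave 10 of 22203 clusters with a gene name. Of these, 8 carry 1 name and 2 carry several, namely Sprr2a2 with Sprr2a1 and Sprr2a3 with Sprr2a1, and all 10 listed symbols were found. The family was proposed with the difference between anti-PD-1 and control tumours already known. Its levels and differences in that contrast are therefore a description, and no test of them is used as support.

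KLN205 cells in Matrigel were injected under the skin of the flank of mice, and antibody was given into the peritoneum at 250 µg every 3 days. Total RNA from 3 tumours with anti-PD-1 antibody (replicates 1, 2 and 3) and from 3 control tumours (replicates 2, 3 and 4) was hybridised to Clariom S Mouse arrays, 1 sample per array. The sample labels call the controls untreated with anti-PD-1, the treatment protocol names an IgG2a isotype antibody, while the design note of the series describes KLN205 cells alive at 7 days and untreated cells. The strain, age and number of the mice are not given in the sources used here, and nothing says that each tumour came from its own animal, so any spread is that between these samples, which may be technical. The samples are pieces of tumour with their host cells, and fewer cells of a type and less RNA per cell cannot be told apart.

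Sprr2 genes encode small proteins built from short proline-rich repeats. In stratified squamous epithelium they are precursors of the cornified envelope, the protein shell that transglutaminases cross-link beneath the membrane of dying keratinocytes. They lie side by side in the epidermal differentiation complex, which also holds the genes of involucrin, loricrin, filaggrin and the late cornified envelope proteins. Outside skin, mouse Sprr2 genes are known to be induced in stressed or inflamed epithelia, among them uterus, airway, bile duct and gut, and Sprr2a is also known as an antibacterial protein of the gut.

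The 10 clusters lie on the plus strand of chromosome 3 between 92215835 and 92433927 (mm10), a stretch of 218 kb. In the RefSeq table of GRCm38.p6 Sprr2g is a transcribed pseudogene and the other listed symbols are protein-coding. The same table holds promoter windows, from 250 bases before to 50 after the annotated start, for 9 of the 10 symbols, and none for Sprr2g. The 250 bases before the start are shown for 5 genes, because the marked motifs occur in the windows of the other coding members and not in that of Sprr2a1. Capitals mark matches of 3 motifs, which were searched on both strands. The first is TGANTCA, the letters bound by AP-1, a dimer of Fos and Jun proteins. The next is the octamer ATTTGCAT, which POU proteins are known to bind. The last is TATAAA, the core of the TATA box. These 3 motifs did not overlap each other in any window of the family.
Sprr2a1 (chr3:92215585-92215834): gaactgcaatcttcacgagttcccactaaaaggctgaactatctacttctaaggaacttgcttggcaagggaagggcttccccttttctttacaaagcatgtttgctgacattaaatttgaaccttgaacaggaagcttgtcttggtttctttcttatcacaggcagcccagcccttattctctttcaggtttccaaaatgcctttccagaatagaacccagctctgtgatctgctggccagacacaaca
Sprr2b (chr3:92316455-92316704): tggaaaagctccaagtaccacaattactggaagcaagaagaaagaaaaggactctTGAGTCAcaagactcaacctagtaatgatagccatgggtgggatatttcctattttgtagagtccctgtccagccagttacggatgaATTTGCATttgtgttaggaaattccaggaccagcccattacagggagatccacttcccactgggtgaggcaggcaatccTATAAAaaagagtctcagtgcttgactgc
Sprr2d (chr3:92338890-92339139): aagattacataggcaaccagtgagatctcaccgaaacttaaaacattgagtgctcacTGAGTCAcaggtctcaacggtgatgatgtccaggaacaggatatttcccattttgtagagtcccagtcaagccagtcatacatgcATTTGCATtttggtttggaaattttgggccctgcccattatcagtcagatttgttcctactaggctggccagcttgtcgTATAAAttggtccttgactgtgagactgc
Sprr2i (chr3:92407741-92407990): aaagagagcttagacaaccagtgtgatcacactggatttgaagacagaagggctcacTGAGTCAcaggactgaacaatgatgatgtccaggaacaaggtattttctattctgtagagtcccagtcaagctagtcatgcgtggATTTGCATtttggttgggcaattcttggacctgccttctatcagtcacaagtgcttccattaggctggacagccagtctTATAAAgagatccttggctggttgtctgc
Sprr2k (chr3:92432332-92432581): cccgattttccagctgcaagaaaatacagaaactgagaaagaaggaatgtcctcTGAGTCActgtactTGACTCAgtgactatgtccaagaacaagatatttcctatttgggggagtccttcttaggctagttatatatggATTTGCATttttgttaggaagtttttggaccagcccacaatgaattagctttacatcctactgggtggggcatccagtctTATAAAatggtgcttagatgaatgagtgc

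All 7 coding genes from Sprr2b to Sprr2k held the 3 motifs in the same order. The TATA box began at -29 from the annotated start in each of the 7. The octamer began between -112 and -108. The AP-1 letters began between -198 and -182, and in Sprr2k they occurred at -196 and again at -182. Over all 32851 promoter windows of the table, 7.81% held the AP-1 letters, 1.74% the octamer and 13.6% the TATA box. All 3 together occurred in 16 windows (0.0487%), the 7 Sprr2 windows and 9 others. The windows of Sprr2a1 and Sprr2a2, which were identical to each other base by base, held none of the 3.

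The annotated starts of the Sprr2a copies do not lie at the same place in this shared sequence. The longest run of bases common to the Sprr2a1 and Sprr2b windows, accagcccattacaggga, began at base 6 after the start in Sprr2a1 and at -80 in Sprr2b. Counted from this run, the place of the Sprr2b TATA box falls past the end of the Sprr2a1 window. Counted in the same way and without gaps, the places of the Sprr2b octamer (-108) and AP-1 letters (-195) fall inside the Sprr2a1 window, which holds neither. That the 3 motifs are not in the Sprr2a windows says only that these letters are not in these windows. The Sprr2a1 and Sprr2a2 windows held TTC and GAA with 4 bases between them, the letters of a STAT6 site, at -204. The same letters began at -176 in the window of Sprr2a3, which the second Sprr2a cluster names but which is not among the 10 symbols. None of the 7 windows from Sprr2b to Sprr2k held them, and 6.95% of all windows did. CAGGAA, which holds the core of an ETS site, was in 8 of the 9 windows, all but that of Sprr2k, and in 30.6% of all windows. CACCC, the letters of a Krüppel-like factor site, was in 4 of the 9 and in 57.5% of all windows. TTC and GAA with 3 bases between them, the letters of a STAT3 site, were in 8.3% of all windows. Of the 9 windows only that of Sprr2i held them, at base 30 after the start. They also began at -249 in the window of Sprr2a3. TGACNNNGC, the antioxidant response element bound by NRF2, was in the Sprr2f window and in 12.4% of all.

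**Figure D1:**
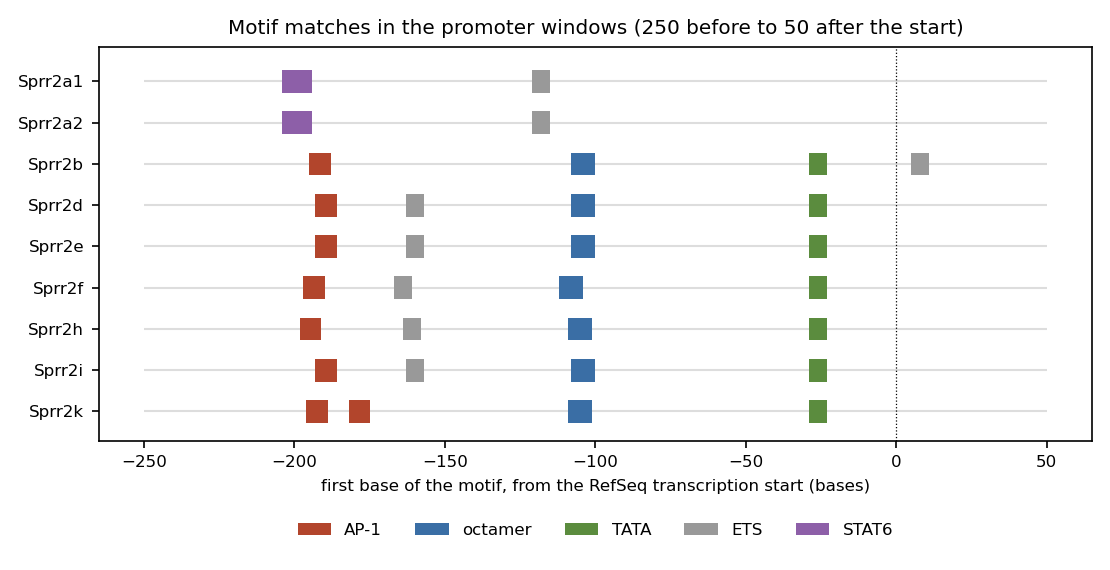
Position of motif matches in the promoter windows of 9 Sprr2 genes, in bases from the annotated start (x axis), 1 gene per row and 1 colour per motif. In the 7 genes from Sprr2b to Sprr2k the AP-1 letters, the octamer and the TATA box stand in the same order with the TATA box at -29, and in Sprr2a1 and Sprr2a2 none of these 3 is marked.

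In global alignments of the windows, Sprr2d, Sprr2e, Sprr2f and Sprr2i shared 73.2% to 89.1% identical columns over their 6 pairs. Sprr2h and Sprr2k shared 81.8%. Sprr2b, Sprr2h and Sprr2k shared 61.9% to 67.5% with the group of Sprr2d, Sprr2e, Sprr2f and Sprr2i. Sprr2a1 and Sprr2a2 shared 49.7% to 53.3% with the other 7, but their windows begin at another place in the shared sequence, which lowers identity, so this value does not measure how alike the promoters are. The gene copies are similar as well, so that probes of 1 cluster may bind RNA of another, and the signal of a single member is uncertain.

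Before the values, the arrays need a description. Control replicate 3 stood apart: its Pearson correlation with the other arrays, across clusters, was 0.908 to 0.936, while the other 5 correlated at 0.973 to 0.987. Its score for 7 adipocyte markers was 5.70, against -2.88 to 1.22 on the other 5 arrays. A score here is the median over a list of the log2 signal minus each cluster's mean over the 6 arrays. Differences of clusters and list medians whose fold moves by more than 1.5 times without this array are also given without it. Differences of scores were not recomputed in this way. The basal squamous genes Krt5 and Trp63 had their lowest signals on control replicate 3. Krt5, a basal keratin, read 17.39, 18.15 and 16.97 in anti-PD-1 tumours, and 16.66, 11 and 13.14 in control replicates 2, 3 and 4. Trp63, the transcription factor of basal cells, read 14.16, 15.93 and 14.37 in anti-PD-1 tumours, against 14.14, 12.77 and 13.19 in controls. On control replicate 3 the adipocyte gene Adipoq read 17.32, the muscle myosin gene Myh4 17.65 and the milk casein gene Csn2 16.21, each its highest of the 6 arrays. By the basal genes, the squamous label is thus less well borne out for control replicate 3 than for the others. In Csn2, Krt1 and Krt10, control replicate 2 was nearer to control replicate 3 than to the other arrays. Its Csn2 signal was 13.68, against 16.21 on control replicate 3, 5.22 on control replicate 4 and 5.13 to 5.85 in anti-PD-1 tumours. The suprabasal keratin genes Krt1 and Krt10 read 5.17 and 7.19 on control replicate 2, and 3.98 and 8.14 on control replicate 3. They read 14.98 and 16.63 on control replicate 4, and 14.12 to 16.33 and 14.87 to 17.56 in anti-PD-1 tumours.

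The 2 clusters of the Sprr2a copies were far higher in every anti-PD-1 tumour than in any control, and they carried the largest differences of the family. All values are log2 signals as the authors deposited them. A fold is 2 to the power of the difference between the mean log2 signals. A ratio of group means is therefore one of geometric means, and not of mean signals on the linear scale. Controls are listed in the order of replicates 2, 3 and 4, and differences are anti-PD-1 minus control, opposite to the direction of the authors' deposited table. Sprr2a2 with Sprr2a1 (92215835 to 92258373) read 17.78, 17.72 and 18.08 in anti-PD-1 tumours, against 14.89, 7.15 and 11.74 in controls. The anti-PD-1 tumours lay within 0.36 log2 units of each other, while the controls spread over 7.74, with replicate 2 highest and replicate 3 lowest. The means were 17.86 ± 0.19 in anti-PD-1 and 11.26 ± 3.89 in control tumours (SD, n = 3 each). The difference was 6.60 ± 1.73 (SE), a 97.0-fold ratio of the group means, and 4.545 or 23.3-fold without control replicate 3.

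Sprr2a3 with Sprr2a1 (92285446 to 92289254) read 13.01, 12.72 and 13.92 in anti-PD-1 tumours, against 8.80, 3.97 and 7.12 in controls. The order of the controls was the same as for the other Sprr2a cluster. The means were 13.22 ± 0.63 in anti-PD-1 and 6.63 ± 2.45 in control tumours. The difference was 6.59 ± 1.13 (SE) or 96.1-fold, and 5.26 or 38.2-fold without control replicate 3. These differences ranked 2nd and 3rd of 22203 clusters, higher in anti-PD-1. Both clusters name Sprr2a1, so they are not separate measurements of different genes.

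Sprr2d, a cornified envelope precursor, had the largest difference among clusters with 1 name. Its cluster (92339140 to 92340873) read 9.35, 8.61 and 9.63 in anti-PD-1 tumours, against 5.85, 4.81 and 6.25 in controls. The lowest anti-PD-1 tumour lay 2.36 log2 units above the highest control. The difference was 3.56 ± 0.44 (SE), or 11.8-fold. It was 3.15 or 8.86-fold without control replicate 3.

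Sprr2i, Sprr2e and Sprr2f, whose windows were the 3 most identical to that of Sprr2d, followed in size. Sprr2i (92407991 to 92409271) read 8.24, 7.19 and 8.04 in anti-PD-1 tumours, against 5.99, 5.85 and 5.86 in controls. Its controls agreed within 0.14, control replicate 3 included, and its difference was 1.92 ± 0.31 (SE) or 3.79-fold. Sprr2e (92352143 to 92353449) read 7.17, 6.88 and 7.37 in anti-PD-1 tumours, against 5.98, 5.20 and 5.26 in controls, a difference of 1.66 ± 0.28 (SE). Sprr2f (92365187 to 92366442) read 6.00, 6.32 and 6.83 in anti-PD-1 tumours, against 5.11, 4.49 and 4.68 in controls, a difference of 1.62 ± 0.29 (SE). The groups did not overlap in any of these 3 clusters.

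Sprr2k, Sprr2b and Sprr2h differed by less than 1 log2 unit. Sprr2k (92432582 to 92433927) read 5.88, 5.51 and 5.23 in anti-PD-1 tumours, against 4.92, 4.95 and 4.36 in controls, a difference of 0.80 ± 0.27 (SE) without overlap. Sprr2b (92316705 to 92318085) read 7.05, 6.83 and 8.22 in anti-PD-1 tumours, against 6.83, 6.59 and 5.88 in controls. Anti-PD-1 replicate 2 and control replicate 2 of Sprr2b were equal, and anti-PD-1 replicate 3 was the highest. Its difference was 0.93 ± 0.43 (SE), and 0.51 without anti-PD-1 replicate 3. Sprr2h (92385685 to 92387324) read 3.22, 4.25 and 4.16 in anti-PD-1 tumours, against 2.83, 2.74 and 3.23 in controls, where the deposited calls list it as not expressed. Its difference was 0.94 ± 0.33 (SE), a 1.92-fold ratio of the group means, with control signals that may be background. Anti-PD-1 replicate 1 of Sprr2h lay below control replicate 4.

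Sprr2g, the transcribed pseudogene, was listed as not expressed in both groups. It read 2.99, 3.52 and 3.40 in anti-PD-1 tumours, against 3.09, 3.18 and 2.95 in controls, with overlap, and no fold is given. Another pseudogene of the row, Sprr2j-ps, is not among the listed symbols and was singled out after its values were seen. It read 9.81, 9.45 and 9.45 in anti-PD-1 tumours, against 8.66, 6.66 and 8.05 in controls, a difference of 1.78 ± 0.50 (SE), and 1.21 without control replicate 3.

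**Figure D2:**
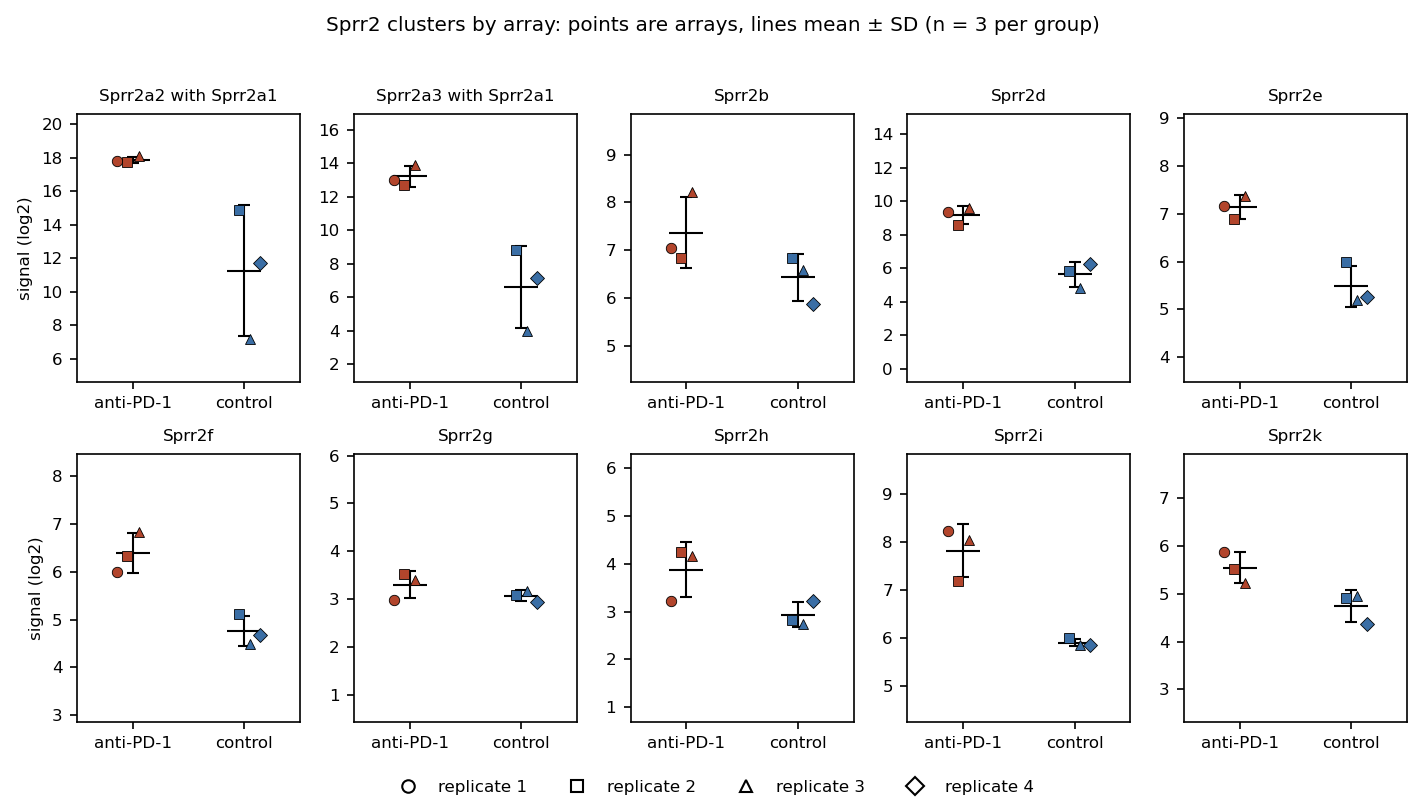
Log2 signal of the 10 Sprr2 clusters (y axis, which covers a wider range for the Sprr2a clusters and Sprr2d than for the others), with anti-PD-1 tumours left and controls right; points are arrays, shapes give the replicate number, and lines give the mean ± SD (n = 3 per group). The controls of the Sprr2a clusters are spread widely, those of Sprr2i lie within 0.14, and the groups of Sprr2b, Sprr2g and Sprr2h overlap or touch.

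Of the 10 clusters, 10 were higher in anti-PD-1 tumours, where 51.9% of all 22203 clusters were. The median difference over the family was 1.64, and over all clusters 0.02. In 7 of the 10 the groups did not overlap, with anti-PD-1 higher, as in 8.89% of all clusters. At an unadjusted p under 0.05 and at least 2-fold higher, 6 of 10 were called, against 2.16% of all clusters. Without control replicate 3, 7 of 10 were at least 2-fold higher (2.34% of all clusters) and 7 did not overlap (12.9%). With limma and Benjamini-Hochberg adjustment over all clusters, 0 of 10 were called at 0.05, with adjusted p between 0.271 and 0.705, where 1 cluster of 22203 (0.0045%) was. Without control replicate 3, Sprr2a3 with Sprr2a1 was among 13 called clusters (adjusted p = 0.0433 by limma), and Sprr2d had an adjusted p of 0.0505. Because the contrast had a part in proposing the family, nothing is read from these counts.

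**Figure D3:**
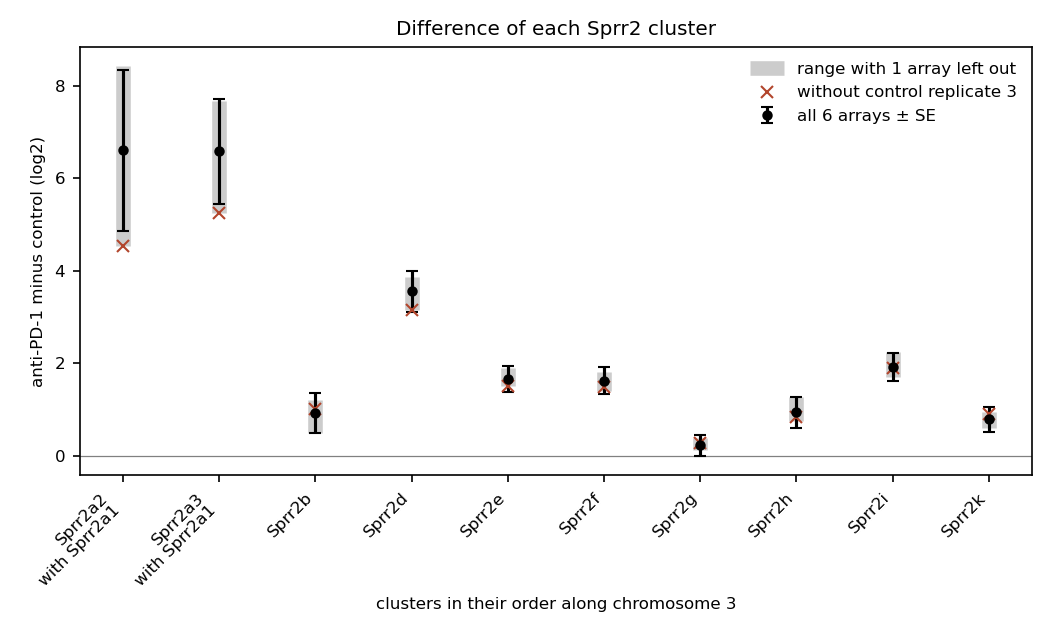
Difference of each Sprr2 cluster, anti-PD-1 minus control in log2 (y axis), in the order of the clusters along chromosome 3; dots give all 6 arrays with the SE, grey bars the range with 1 array left out, and crosses the value without control replicate 3. The Sprr2a clusters stand at 6.60 and 6.59 with ranges of 4.545 to 8.415 and 5.26 to 7.67, Sprr2d at 3.56, and Sprr2g at 0.23.

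The members differed in how much the controls varied. The SD among controls was 3.89 and 2.45 for the Sprr2a clusters, against 0.08 for Sprr2i and 0.74 for Sprr2d, while the median over all clusters was 0.36. The control SD of Sprr2a2 with Sprr2a1 ranked 53rd of 22203. Among anti-PD-1 tumours the SD of the 10 clusters ran from 0.19 to 0.75. Over the 6 arrays the members correlated with each other at a median Pearson r of 0.77 over 45 pairs, from 0.33 to 0.98, which includes the group difference that they share. In the deviations from the group means the median r was 0.18. The Sprr2a clusters still followed each other there (r = 0.98), as did Sprr2a3 with Sprr2a1 and Sprr2e (r = 0.79), while Sprr2h and Sprr2k went opposite ways (r = -0.85). These are descriptions over 6 arrays of 6 samples, and the members may share probe targets.

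Markers of the squamous cells themselves were set beside the family on each array. All 8 basal squamous markers were higher in anti-PD-1 tumours, and none was listed as not expressed in both groups. Their score was 0.65 to 2.33 in anti-PD-1 tumours, and 0.67, -4.01 and -1.54 in control replicates 2, 3 and 4. All 7 markers of suprabasal skin were higher too, with scores of 1.24 to 2.92 in anti-PD-1 tumours, and of -3.40, -4.52 and 1.80 in controls. Control replicate 2 thus reached the basal score of anti-PD-1 replicate 3, and control replicate 4 exceeded the suprabasal score of anti-PD-1 replicates 1 and 3. Neither control reached the anti-PD-1 range in both scores. In the Sprr2a, Sprr2d, Sprr2e, Sprr2f, Sprr2i and Sprr2k clusters both controls lay below every anti-PD-1 tumour. These are the clusters whose groups did not overlap, so this holds for every control by definition. In Sprr2b, Sprr2g and Sprr2h the groups overlapped or touched.

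When the basal score was subtracted on each array, the mean of the Sprr2a clusters ran from 0.65 to 3.11 in anti-PD-1 tumours and from -2.67 to -1.06 in controls. The groups did not overlap there, and the difference was 3.61, against 6.59 before the subtraction. The mean of the 8 clusters from Sprr2b to Sprr2k, treated in the same way, ran from -1.79 to 0.36 in anti-PD-1 tumours and from -1.19 to 3.14 in controls, where control replicate 3 with its low basal score was highest. The difference was then -1.53 for these 8 clusters and -0.50 for the mean of all 10, both with overlap. For all 10, control replicate 3 stood at 1.98, against -1.17 and 0.35 in control replicates 2 and 4. The anti-PD-1 tumours ran from -1.30 to 0.91. Both negative differences thus lean on control replicate 3, were not recomputed without it, and give no firm direction. With the suprabasal score subtracted instead, a choice made after seeing the data, the Sprr2a mean was 0.06 to 2.52 in anti-PD-1 tumours, and 3.003, -2.16 and -4.61 in control replicates 2, 3 and 4. Control replicate 2 then lay above every anti-PD-1 tumour, so the separation of the Sprr2a clusters held for the basal score and not for the suprabasal score. The same subtraction gave differences of 2.74 for the Sprr2a mean, -2.40 for Sprr2b to Sprr2k and -1.37 for all 10. For Sprr2b to Sprr2k, control replicates 2, 3 and 4 stood at 2.88, 3.65 and -2.59, against -2.38 to -0.23 in anti-PD-1 tumours. For all 10, control replicates 2 and 3 stood at 2.90 and 2.48, and anti-PD-1 tumours ran from -1.89 to 0.32. In both, control replicate 4 lay below every anti-PD-1 tumour. None of these differences was recomputed without control replicate 3, and the negative ones give no firm direction. These values describe the contrast that chose the family, and the part of the squamous cell share was not tested. Markers of host tissue moved the other way: 7 of 7 adipocyte, 6 of 6 fibroblast and 5 of 5 endothelial markers were lower in anti-PD-1 tumours. The fibroblast score was -1.28 to -0.09 in anti-PD-1 tumours and -0.49 to 1.24 in controls, and the endothelial score -1.32 to -0.46 and 0.05 to 1.69. Mammary and skeletal muscle markers were lower for 6 of 6 each, with scores of -1.48 to -1.10 and -3.45 to 1.36 in anti-PD-1 tumours, and -1.67 to 3.54 and -0.48 to 2.26 in controls. The muscle median difference was -0.85, and 0.04 without control replicate 3, and the adipocyte median -3.41 and -1.11. Of 5 markers each, 4 were lower for T cells, macrophages and B and plasma cells, while 4 were higher for neutrophils and for pan-epithelial genes. No marker in these lists was listed as not expressed in both groups, and their part was not tested.

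**Figure D4:**
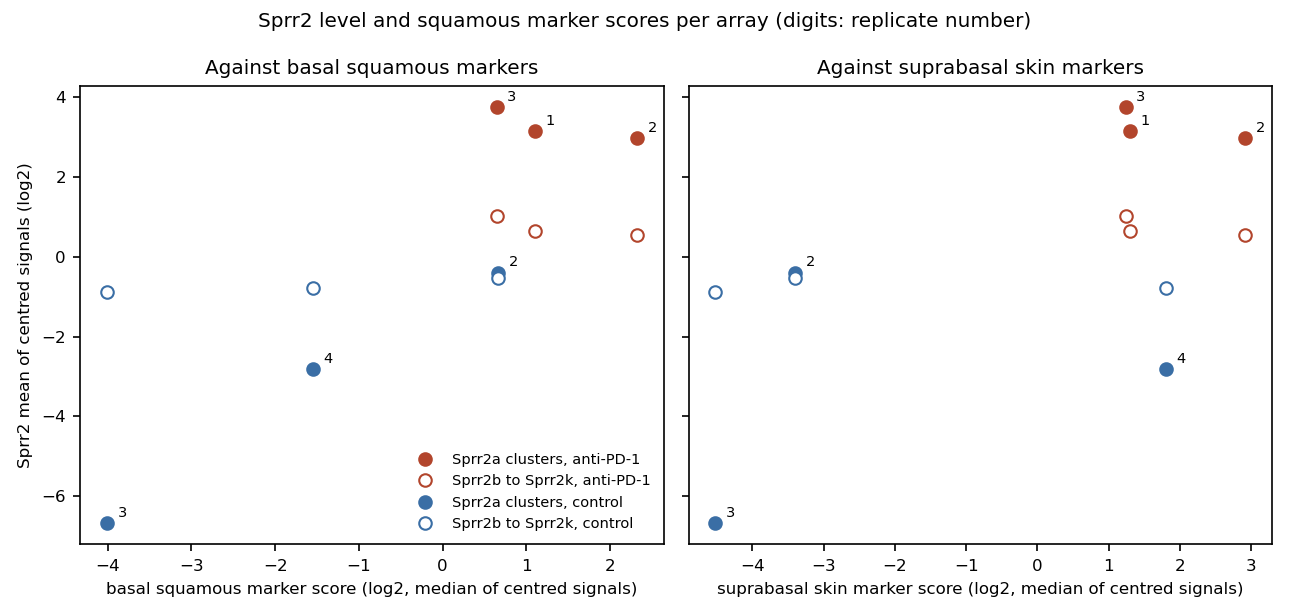
Mean centred log2 signal of the Sprr2a clusters (filled) and of Sprr2b to Sprr2k (open) on each array (y axis) against the marker score of basal squamous cells (left) and suprabasal skin (right); digits are replicate numbers, red points anti-PD-1 tumours and blue points controls. Control replicate 2 has the basal score of anti-PD-1 replicate 3 (0.67 and 0.65), with a suprabasal score of -3.40, and control replicate 4 has a suprabasal score of 1.80 with a basal score of -1.54. Their Sprr2a means are -0.40 and -2.81, and those of the anti-PD-1 tumours 2.98 to 3.76.

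The other small proline-rich genes, neighbours of the family downstream on chromosome 3, were higher in anti-PD-1 tumours for 3 of 4, and 0 of 4 passed the adjusted threshold. Sprr1b, a cornified envelope precursor of stressed keratinocytes, read 8.28, 9 and 8.36 in anti-PD-1 tumours, against 8.09, 4.87 and 6.18 in controls, a difference of 2.17 ± 0.76 (SE) that was 1.41 without control replicate 3. Sprr1a read 6.15, 8.45 and 7.26 in anti-PD-1 tumours, against 4.66, 4.30 and 7.82 in controls, with overlap. It was listed as not expressed in controls, where its signal may be background. The ratio of its group means was 3.23-fold, and its difference of 1.69 was 1.05 without control replicate 3. Sprr4 read 6.83, 9.80 and 7.42 in anti-PD-1 tumours, against 5.13, 5.34 and 11.12 in controls, so that its highest value was a control. Its difference was 0.82, and -0.11 without control replicate 3. Sprr3, a precursor of internal squamous linings, was listed as not expressed in both groups and differed by -0.37. In Sprr1a and Sprr4, control replicate 4 stood above control replicates 2 and 3, as it did for the suprabasal score and in Sprr2d and Sprr2h. In Sprr1b, as in the Sprr2a clusters, control replicate 2 was the highest control.

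Transglutaminases, the enzymes that cross-link the envelope, had a median difference of 0.06 over 7 genes, with 4 higher and 0 past the adjusted threshold. Tgm3, an epidermal and hair enzyme, read 7.08, 7.42 and 8.08 in anti-PD-1 tumours, against 6.54, 6.51 and 6.84 in controls, without overlap. Tgm1, the main envelope enzyme of keratinocytes, read 11.56, 13.08 and 10.24 in anti-PD-1 tumours, against 12.18, 7.74 and 9.59 in controls, with overlap. Its difference was 1.79, and 0.74 without control replicate 3. Tgm5, another epidermal enzyme, was listed as not expressed in controls and was 1.67-fold higher in the group means, with overlap. Tgm2, the widely expressed tissue enzyme, differed by -0.87, and Tgm4 and Tgm6 by -0.33 and -0.08. Tgm7 was listed as not expressed in both groups.

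Among 21 other envelope precursors and envelope-bound proteins, 20 were higher, 7 of them without overlap, and 1 was lower without overlap, where 8.89% of all clusters were higher and 7.74% lower without overlap. The list had a median difference of 1.95, and of 1.325 without control replicate 3. The 4 with the smallest unadjusted p were Csta1, a cysteine protease inhibitor of the stefin A group, Rptn, Cysrt1 and Sbsn. Csta1 differed by 2.14 ± 0.28 (SE) and Rptn, which encodes the filaggrin-like repetin, by 2.68 ± 0.59. Cysrt1, listed as not expressed in controls, was 2.13-fold higher in the group means. Sbsn, which encodes the secreted suprabasin, differed by 2.86 with overlap. Of 21 late cornified envelope genes 19 were higher, 3 of them without overlap, and 1 was lower without overlap, which is near those shares of all clusters. Their median difference was 0.92. Lce1c differed by 1.62. Lce1k and Lce1m, listed as not expressed in controls, were 2.99-fold and 4.62-fold higher in the group means, Lce1m with overlap. Lce3f was listed as not expressed in both groups. In both lists 0 genes passed the adjusted threshold.

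Known regulators of epidermal genes gave a mixed picture, and 0 of 22 epidermal transcription factors passed the adjusted threshold. Of these 16 were higher and 6 lower, with a median of 0.73. Tfap2a, an AP-2 factor of epidermis, read 12.79, 13.33 and 12.77 in anti-PD-1 tumours, against 11.68, 11.16 and 11.66 in controls. Pou2f3 and Pou3f1, epidermal POU factors, a class of proteins that bind the octamer, differed by 2.04 ± 0.59 (SE) and 1.05 ± 0.37, without overlap. Klf5, a factor of proliferating epithelium, differed by 1.65 with overlap. Elf5 and Ehf, epithelial factors of the ETS class, had the largest negative differences of the list and were named with their values known. Elf5 differed by -3.51 ± 2.07 (SE) and Ehf by -2.32 ± 1.17, with overlap, and by -0.91 and -1.01 without control replicate 3, which had the highest signal of both. AP-1 factors had a median of -0.13 over 9 genes, with 4 higher. Fosl1, an AP-1 subunit of squamous cells, read 10.90, 11.53 and 12.07 in anti-PD-1 tumours, against 11.02, 6.75 and 9.91 in controls. Its difference was 2.27, and 1.03 without control replicate 3, while Jun, Batf and Fos differed by -0.50, -0.46 and -0.58. The direction of the AP-1 median turned without control replicate 4, where it was 0.03.

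Cytokines, receptors and signalling genes around STAT6 and STAT3, factors known to induce Sprr2 genes in mouse epithelia, had a median of -0.03 over 20 genes, 9 higher and 11 lower, with 0 past the adjusted threshold. This median was above 0, at up to 0.17, when any array other than control replicate 3 was left out. Il6 read 9.24, 9.45 and 7.24 in anti-PD-1 tumours, against 7.13, 6.46 and 7.48 in controls, with overlap. The part of these genes in the Sprr2 differences was not tested. Il6st, the gene of a receptor subunit for IL-6, differed by -1.24. Il22ra1 and Il13ra1, which encode receptor chains for IL-22 and for IL-4 and IL-13, differed by 1.21 and 0.86 with overlap, and by 0.62 and 0.23 without control replicate 3. Genes of the NRF2 pathway, the oxidative stress response, had a median of 0.30 over 11 genes, 8 of them higher. Among these, Srxn1 and Txnrd1 differed by 0.61 and 0.28 without overlap, and Hmox1 and Gsta4 by 1.23 and 1.16 with overlap. Without control replicate 3, Hmox1 differed by 0.56 and Gsta4 by 0.41.

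**Figure D5:**
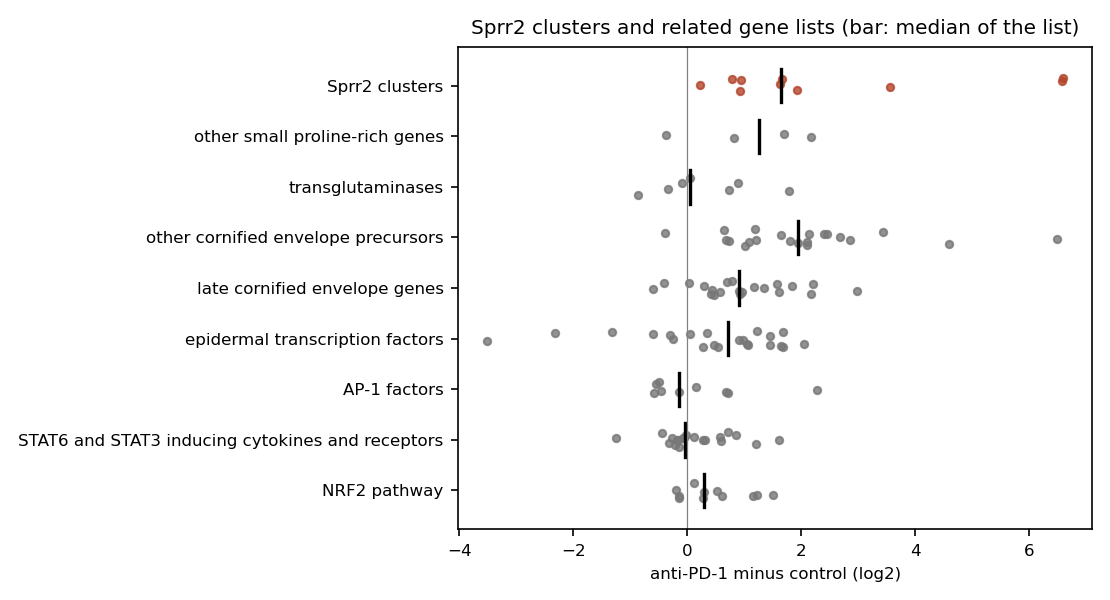
Difference of each gene, anti-PD-1 minus control in log2 (x axis), for the Sprr2 clusters (top row, red) and 8 related gene lists; each point is 1 cluster and the bar is the median of the list. The medians are 1.64 for the Sprr2 clusters, 1.95 for other envelope precursors, 0.06 for transglutaminases, -0.13 for AP-1 factors and -0.03 for cytokines and receptors.

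The clusters whose profile over the 6 arrays was most like that of the family were in none of these lists. The profile was the mean of the centred signals of the 10 clusters, to which the Sprr2a clusters contribute most, and likeness was Pearson's r over 6 arrays. The 10 most alike were Dpep2, Scmh1, Nasp, Hdgf, Slc25a3, Gm7945, Lrrc42, Mapre1, Acbd6 and Gm8841, with r between 0.990 and 0.996. Their differences were small, from 0.36 for Mapre1, which encodes a microtubule end-binding protein, to 1.10 for Nasp, which encodes a histone chaperone. Of 22193 clusters outside the family, 203 (0.915%) had r above 0.95. The points share 2 groups that differ, so that r also holds the group difference. In the deviations from the group means, r of these 10 clusters with the family was 0.922 to 0.984. They were picked for their high r out of all clusters outside the family.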

How the data were processed

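The authors deposited log2 signals per transcript cluster, made by the gene-level SST-RMA method on Clariom S Mouse arrays with mm10 annotation, per the file headers. Transcriptome Analysis Console is named in the submitters' processing notes, and its version is not given there. The deposited table also holds group averages, standard deviations and a signed fold change (a score), p-values with FDR, and calls of expressed or not, whose rules are not given. A second deposited table held the same log2 values, with 0 differences. Scanner files were not used here. The median signal of the arrays lay between 7.04 and 7.13, so differences are relative to the bulk of clusters.

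All 22203 clusters with a gene symbol, including 836 with several symbols, were fitted with lmFit and eBayes of limma 3.58.1 (R 4.3.3). The p-values are two-sided and were adjusted by Benjamini-Hochberg over every cluster, at a threshold of 0.05. The limma script was tested on simulated data. Permuting 3 arrays against 3 exactly has 0.1 as its smallest two-sided p, so no such test was run. Where a gene was listed as not expressed in controls, dim control values were raised to the lowest signal called expressed on that array. That signal was 2.65 to 2.76 on the control arrays. No control value of such genes named here lay below it. Their folds are therefore plain ratios of geometric group means and not lower limits, and their control signals may be background.

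The members, the 8 pathway lists, the 12 marker lists and the tests were chosen with earlier results of these data known. Named were all members, all other small proline-rich and transglutaminase genes, up to 4 genes with the smallest unadjusted p from each other pathway list, the 10 clusters most like the family, and some genes that describe the arrays. Promoter windows are from RefSeq (GRCm38.p6). They were aligned with Biopython 1.88 and searched for 8 motifs. Alternatives were each array left out, a replicate block, quantile normalization, median centring, genes with 1 name only, expressed clusters only, eBayes with trend and robust settings, and the deposited averages and p-values. The number of arrays limits the precision of every value.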

Additional observations from a re-analysis of the deposited data

How the results depend on the processing

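The Sprr2 clusters were higher in anti-PD-1 tumours under every alternative run, and none of their 117 recomputed differences changed sign. With 1 array left out, 10 of 10 stayed higher, 7 to 9 did not overlap, and the median difference ran from 1.47 to 1.85. Fewer arrays make a lack of overlap easier for any cluster. Of all clusters, 8.89% were higher without overlap with all arrays, and 12.9% without control replicate 3. The share was not computed for the other arrays left out, so nothing is read from the rise above 7. The median was 1.28 over the 8 clusters with 1 name, which leaves out the Sprr2a clusters. Differences moved by more than the SD between replicates in 3 cases: Sprr2h at 1.42 and Sprr2k at 0.435 under the replicate block, and Sprr2h at 1.41 by the averages of the authors' deposited table. The count of clusters called by limma over the whole array rested on single arrays: it was 1 with all arrays (2172 at unadjusted p under 0.05) and 0 to 13 with 1 array left out (1117 to 3332), namely 13 without control replicate 3, 8 without control replicate 4 and 0 without any of the other 4. It was 0 with the replicate block (737), with quantile normalization (2117) and with median centring (2131), and 1 by the FDR of the authors' deposited table. With the 2-fold limit added to unadjusted p under 0.05, the count of 954 ran from 601, without anti-PD-1 replicate 3, to 2029, without control replicate 2. The titles share only the numbers 2 and 3 between groups, and the deviations of same-numbered samples correlated at -0.20 and -0.19, so the block is a fit by number and not a known pairing. Its differences rest on replicates 2 and 3 of each group alone. Anti-PD-1 replicate 1 and control replicate 4 have no partner and add nothing to them.

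List medians near 0 had no stable direction. For cytokines and receptors the median was -0.23 to 0.17 with 1 array left out (0.02, 0.07, 0.15, 0.13 and 0.17 where it turned), 0.17 with the replicate block and 0.037 over expressed clusters. For AP-1 factors it was -0.28 without control replicate 3, 0.025 without control replicate 4 and 0.065 with the replicate block. For transglutaminases it was -0.025 without anti-PD-1 replicate 2. The causes were not tested.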
